A study of Rattus norvegicus with 8 samples.

Results

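Probes for the WNT ligands, their receptors, co-receptors and secreted antagonists, the R-spondins with their receptors, and the cytoplasmic and nuclear transducers were examined in rat ovary. Members were all non-control probes whose gene name on the array belongs to the Wnt, Fzd, Sfrp, Dkk, Rspo, Dvl or Tcf7 groups or is Lgr4 to Lgr6, Lrp5, Lrp6, Axin1, Axin2, Wif1, Lef1, Ctnnb1, Porcn, Ror1 or Ror2. This gave 71 of the 30367 probes on the array, standing for 58 genes. Of these, 63 probes of 52 genes were well above background on at least 4 of the 8 arrays and were tested.

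Ovary RNA was measured on 1-colour Agilent rat arrays, 4 labelled control and 4 labelled PMSG, pregnant mare serum gonadotropin, which acts mainly like follicle-stimulating hormone. Females aged 26 days received a subcutaneous dose of 50 IU PMSG in phosphate buffer with albumin (0.2 ml), or that buffer by itself. The sample titles call the controls a reference without treatment. Ovaries were removed after 48 h, at 28 days of age. The labels name no strain and do not say whether a sample is 1 animal or a pool, so p-values measure the spread between these samples. Ovary markers were present, with all 15 oocyte markers, 9 of 10 granulosa cell markers and all 7 theca cell markers tested. Lhcgr, Star and Cyp11a1, genes that gonadotropins are known to raise, ran the other way here, with log2 differences of -1.93, -2.75 and -3.36. They were the 3 lower genes among the 7 theca cell markers, of which 2 were higher, Insl3 by 2.60 and Ptch1 by 0.79. Every direction follows the labels as given. Whether the labels were exchanged was not tested, and if they were, each direction given here would turn.

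WNT proteins are secreted, lipid-modified ligands that bind Frizzled receptors together with the co-receptors LRP5 and LRP6. In the canonical branch this protects beta-catenin from destruction, and beta-catenin then acts with TCF and LEF factors on target genes. Most SFRP and DKK proteins, and WIF1, can hold the signal down outside the cell. R-spondins raise it by keeping Frizzled receptors at the surface through LGR4, LGR5 and LGR6. In the ovary the pathway is best known for WNT4 and RSPO1 in female gonad development and for a part in granulosa cells.

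Of the 52 tested genes, each read by its brightest tested probe, 17 differed between the labels at a limma adjusted p under 0.05. In arrays labelled PMSG, 15 stood higher and 2 stood lower. That is 32.7% of the genes, beside 34.5% of all 21926 gene names tested, so the members were called about as often as other genes. The split by direction was 28.8% higher and 3.85% lower, beside 18.0% and 16.5% of all gene names. At least 2-fold differences numbered 8, all higher in arrays labelled PMSG, or 15.4% of the members beside 7.33% of all gene names, and none was lower by that much, beside 4.67%. The median log2 difference was 0.28 over the members and 0.12 over all gene names. The groups did not overlap for 16 genes, or 30.8%, beside 37.0% of all gene names. Probe by probe, 19 of 63 were called, 17 of them higher, beside 34.2% of all tested probes called and 17.6% called higher.

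The higher genes were secreted antagonists (Sfrp2, Dkk1, Sfrp4, Dkk3), R-spondins (Rspo3, Rspo4), the receptors Fzd10-ps1, Fzd9 and Fzd1, the ligands Wnt7a and Wnt10a, and all 4 nuclear factors. The lower genes were the ligands Wnt4 and Wnt10b. Under median centring of the arrays, which moved the median over all tested probes from 0.11 to -0.05, 10 members were higher and 3 lower. Without control array 4, 11 members were called, 10 of them higher, while over the 25303 tested probes the number called went from 8658 to 6552. Without PMSG array 4, 25 were called, 20 of them higher, and over all tested probes 11382.

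**Figure D1:**
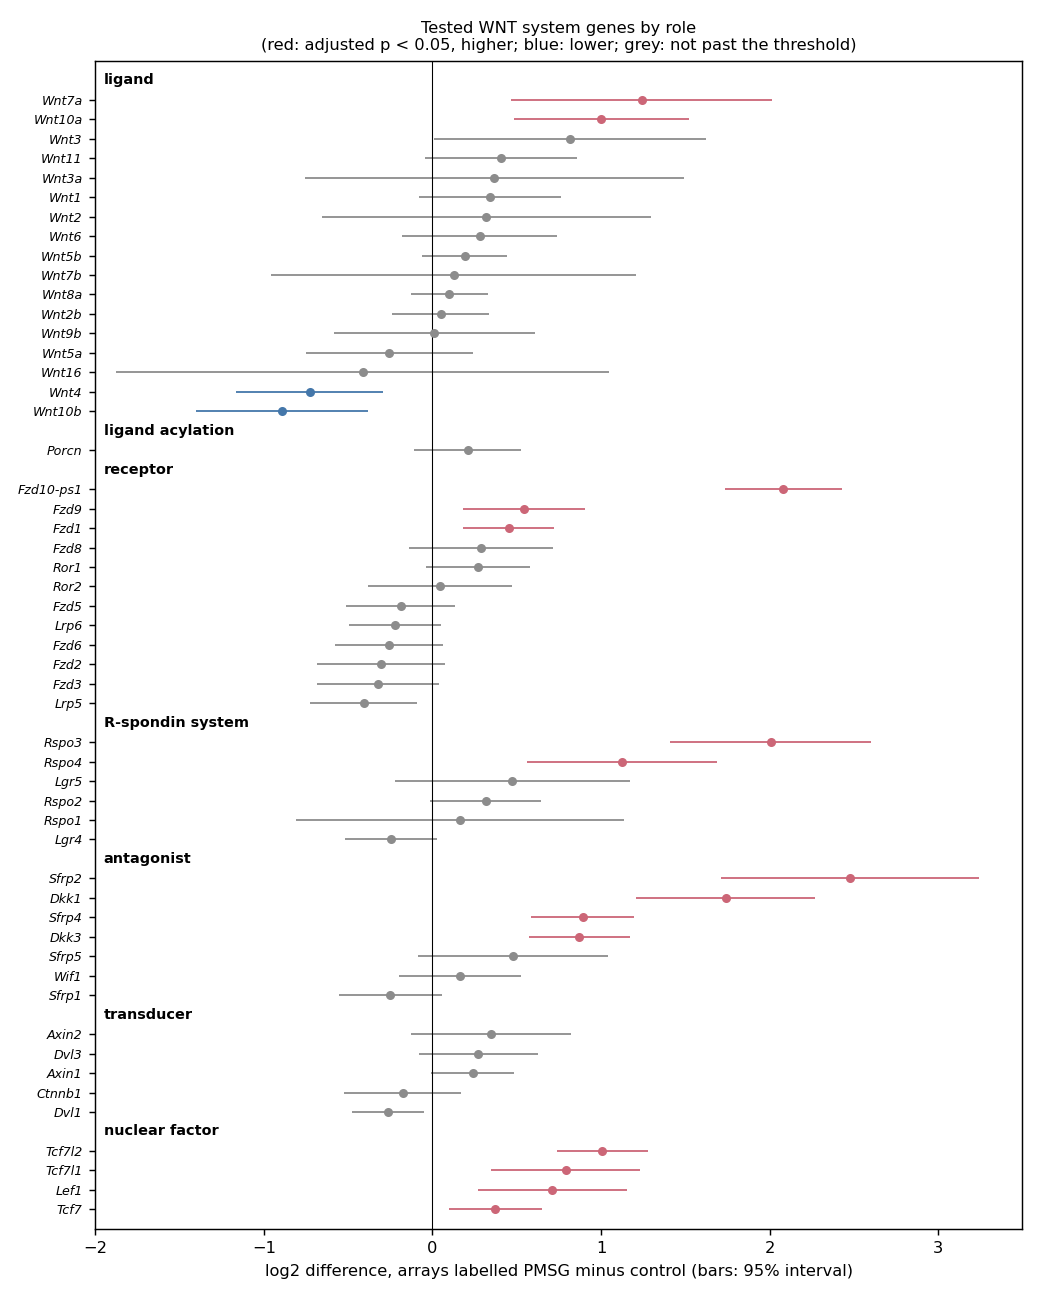
Log2 difference of each of the 52 tested genes (arrays labelled PMSG minus arrays labelled control), grouped by role, with points for the estimate and bars for the 95% interval of the limma fit on 4 against 4 arrays. The 15 genes called higher are red, the 2 called lower are blue, and the range runs from -0.89 for Wnt10b to 2.48 for Sfrp2.

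**Figure D2:**
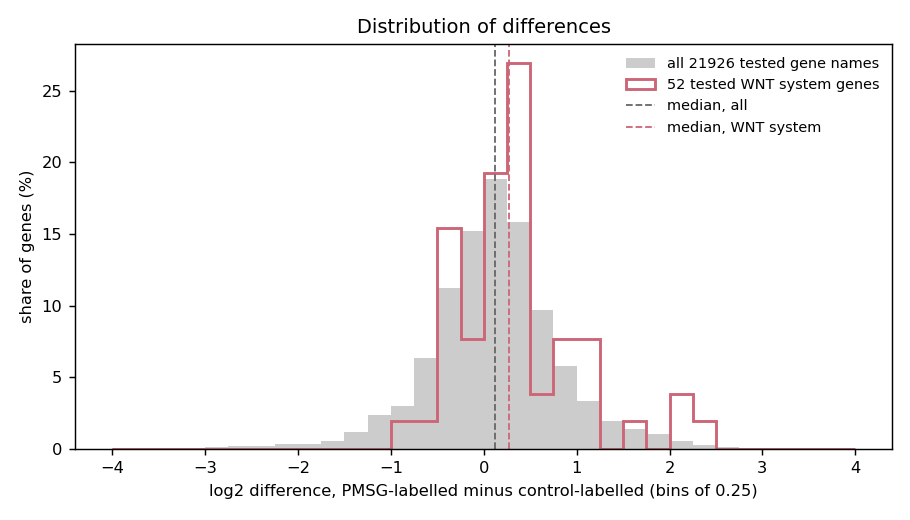
Share of genes in bins of log2 difference for all 21926 tested gene names (grey) and the 52 tested members (red outline); dashed lines mark the medians, 0.12 and 0.28. The axis stops at 4 in both directions, which leaves out 23 gene names and no member.

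Markers of some other cells moved with the labels too. Of 15 oocyte markers, 14 were higher in arrays labelled PMSG and 0 lower, with a median log2 difference of 1.89. The mean level of that list ran from -2.17 to -1.53 on arrays labelled control and from -0.51 to 0.18 on arrays labelled PMSG. Of 10 tested oviduct epithelium markers 8 were higher and 0 lower, with a median of 1.62 and a mean level of -2.87 to -2.31 against -1.18 to -0.74. Endothelium markers had 2 higher and 5 lower of 11, with a median of -0.46, and leukocyte markers 5 higher and 0 lower of 10, with a median of 0.44. Granulosa cell markers had 2 higher and 2 lower of 9 tested, with a median of -0.23. Theca cell markers had 2 higher and 3 lower of 7, with a median of -0.22. In whole ovary, fewer cells of a type and less RNA per cell cannot be told apart. The part of these cell types in the results for the WNT genes was not tested.

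**Figure D3:**
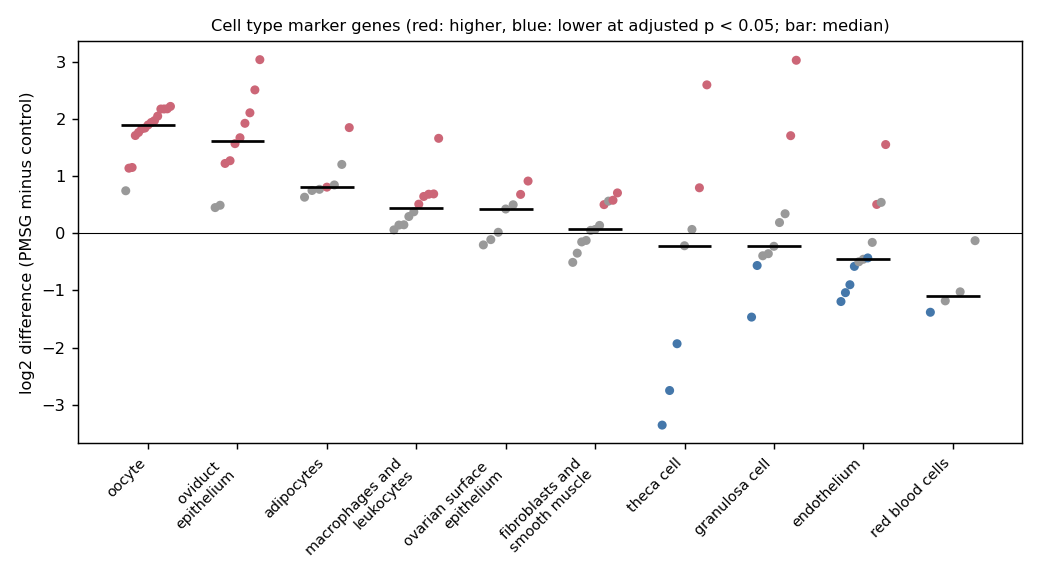
Log2 differences of the tested marker genes of 10 cell types, 1 point for each gene and a bar for the median. Oocyte markers (median 1.89) and oviduct epithelium markers (median 1.62) stand highest and red blood cell markers (median -1.10) lowest.

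The start regions of the genes that moved most are given for orientation. RefSeq (GRCr8) held a promoter entry, 250 bases before to 50 after the start site, for 41 of the 58 genes. These were searched on both strands for the core of the TCF and LEF binding site (CTTTGA, or TCAAAG on the other strand), the cAMP response element (TGACGTCA) and the NR5A receptor site (CAAGGTCA, or TGACCTTG). The TCF core was found in 4 of the 41, those of Axin2, Dkk1, Tcf7 and Wnt8a, or 9.76%, beside 16.1% of all 33469 promoters of this length. The cAMP element was in 0 of the 41, beside 1.83% of all promoters, and the NR5A site in 0, beside 1.52%. The 250 bases before the start site follow, 5′ to 3′ on the gene's strand, for the 4 genes with the largest increase among those with an entry, and for Axin2, the classical feedback target of the pathway. Capitals mark the TCF core, which stands in Dkk1 and in Axin2 at 2 places each and not in the other 3 windows. They lie at chr2:171387286-171387535 (+ strand), chr12:33737560-33737809 (- strand), chr1:30112279-30112528 (+ strand), chr1:237798651-237798900 (- strand) and chr10:94398535-94398784 (+ strand) in that order.
Sfrp2: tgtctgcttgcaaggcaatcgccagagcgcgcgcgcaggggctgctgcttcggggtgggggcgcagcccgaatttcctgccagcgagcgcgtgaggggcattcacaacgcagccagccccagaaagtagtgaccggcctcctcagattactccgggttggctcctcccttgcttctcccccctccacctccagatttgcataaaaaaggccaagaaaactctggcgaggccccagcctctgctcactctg
Fzd10: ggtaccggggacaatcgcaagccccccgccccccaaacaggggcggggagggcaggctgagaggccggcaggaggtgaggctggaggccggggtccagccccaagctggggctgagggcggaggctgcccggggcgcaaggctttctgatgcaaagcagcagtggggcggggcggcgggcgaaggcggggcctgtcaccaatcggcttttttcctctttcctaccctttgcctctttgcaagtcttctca
Rspo3: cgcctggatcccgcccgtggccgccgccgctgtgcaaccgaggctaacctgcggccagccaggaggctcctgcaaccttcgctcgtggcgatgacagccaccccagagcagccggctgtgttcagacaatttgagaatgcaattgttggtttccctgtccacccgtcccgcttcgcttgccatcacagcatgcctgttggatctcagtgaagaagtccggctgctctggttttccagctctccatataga
Dkk1: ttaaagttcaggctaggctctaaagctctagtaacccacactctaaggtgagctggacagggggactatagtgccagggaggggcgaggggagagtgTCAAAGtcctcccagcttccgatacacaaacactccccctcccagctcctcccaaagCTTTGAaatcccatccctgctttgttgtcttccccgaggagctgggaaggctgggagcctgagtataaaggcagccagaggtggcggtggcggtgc
Axin2: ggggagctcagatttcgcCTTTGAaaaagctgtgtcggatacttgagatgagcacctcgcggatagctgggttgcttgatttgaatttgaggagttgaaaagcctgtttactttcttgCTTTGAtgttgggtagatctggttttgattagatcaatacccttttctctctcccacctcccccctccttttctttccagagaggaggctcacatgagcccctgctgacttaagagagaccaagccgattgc
In Dkk1 the cores begin 153 and 96 bases before the start site, and in Axin2 232 and 132 bases before it. Such matches are a description of the letters and not evidence of binding.

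Among secreted antagonists 4 of 7 tested genes were higher in arrays labelled PMSG and 0 were lower, with a median log2 difference of 0.87. That is 57.1%, beside 34.5% of all gene names called and 18.0% called higher. This group was set by family name (Sfrp, Dkk and Wif1), not by the action of each protein. Levels are given throughout as log2 signal minus the 75th percentile of the array, a scale on which 1 unit is a factor of 2, and the levels of different probes are not comparable. Sfrp2, a soluble decoy that binds WNT ligands, measured -3.95, -3.45, -2.68 and -3.76 on the control-labelled arrays, numbered 1 to 4, and -0.83, -1.32, -1.45 and -0.33 on the PMSG-labelled ones. The lowest PMSG-labelled array thus stood above the highest control-labelled one. The difference was 2.48 (SE 0.33, limma adjusted p = 9.57e-04), or 5.58-fold (probe on rn4 chromosome 2, 175486729 to 175486788).

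Dkk1, which blocks LRP5 and LRP6, was at -6.66, -6.61, -5.86 and -6.09 on control-labelled arrays and at -4.14, -4.69, -4.52 and -4.91 on PMSG-labelled arrays. The groups did not overlap, and 1 of the 4 control-labelled arrays was not well above background for this probe. Its difference was 1.74 (SE 0.23, limma adjusted p = 9.03e-04, rn4 probe position chr1:234392749-234392808). With normexp background correction, whose offset shrinks dim signals, the difference was 0.61 (limma adjusted p = 0.00264). A second Dkk1 probe, 874 bases away, did not reach that level on any of the 8 arrays.

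Sfrp4, a further decoy known from granulosa cells and corpora lutea, was at -3.33, -3.03, -2.82 and -3.04 on control-labelled arrays and at -2.22, -2.34, -2.03 and -2.06 on PMSG-labelled arrays. This is a difference of 0.89 (SE 0.13, limma adjusted p = 0.00153, rn4 probe position chr17:53121979-53122038) without overlap. Dkk3, the divergent member of the Dickkopf family, was also separated without overlap. It was at 3.16, 2.93, 2.79 and 3.18 on control-labelled arrays and at 3.92, 4.00, 3.66 and 3.97 on PMSG-labelled arrays, a difference of 0.87 (SE 0.13, limma adjusted p = 0.00157, rn4 probe position chr1:169924663-169924722). Sfrp1, Sfrp5 and Wif1, also WNT-binding decoys, did not pass the threshold, with log2 differences of -0.25, 0.48 and 0.16 and limma adjusted p-values from 0.165 to 0.445. Dkk2 and Dkk4 were well above background on 1 and 2 of the 8 arrays and were not tested.

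In the R-spondin group of ligands and receptors, 2 of 6 tested genes were higher and 0 were lower, with a median log2 difference of 0.40. The share called, 33.3%, was near the 34.5% of all gene names, of which 18.0% were called higher. Rspo3 was at -4.38, -4.37, -4.08 and -4.91 on control-labelled arrays and at -2.55, -3.01, -2.21 and -1.93 on PMSG-labelled arrays. Every PMSG-labelled array was above every control-labelled array, by 2.01 on average (SE 0.26, limma adjusted p = 8.16e-04, rn4 probe position chr1:29108556-29108615). The difference was 1.27 with normexp background correction (limma adjusted p = 2.93e-04).

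Rspo4 was at -7.51, -6.95, -6.56 and -6.29 on control-labelled arrays, 3 of them well above background, and at -5.78, -5.58, -5.63 and -5.81 on PMSG-labelled arrays. The groups did not overlap, with a difference of 1.13 (SE 0.25, limma adjusted p = 0.00873, rn4 probe position chr3:142212882-142212941). It was 0.31 with normexp (limma adjusted p = 0.0454), and the call was lost under quantile normalization (limma adjusted p = 0.0562) and with the deposited log2 values (0.73, limma adjusted p = 0.142). Rspo1, which acts in ovary development, differed by 0.16 (95% interval -0.81 to 1.14). PMSG-labelled array 4 stood at -2.37 for Rspo1 and the other 3 between -4.24 and -4.07.

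Rspo2 was read by 2 probes that did not give the same result. Oocytes are a known source of RSPO2 in rodents. The first probe, the brighter over all 8 arrays together and so the one counted for the gene (chromosome 7, 78826526 to 78826585) was at -4.58, -4.75, -4.60 and -4.65 on control-labelled arrays and at -4.04, -4.49, -4.16 and -4.62 on PMSG-labelled arrays. With PMSG-labelled array 4 inside the control range, its difference of 0.32 did not pass (95% interval -0.01 to 0.64, limma adjusted p = 0.121). The second probe (chromosome 7, 78776221 to 78776280), designed on another transcript record, was at -5.52, -5.43, -5.46 and -5.90 against -3.38, -3.88, -3.58 and -4.53, without overlap. It read below the first on every control-labelled array and above it on every PMSG-labelled array, which matters only for choosing the brightest probe. Its difference was 1.74 (SE 0.25, limma adjusted p = 0.00125), or 0.78 with normexp (limma adjusted p = 0.00338). Which probe is counted thus decides whether Rspo2 is called. The probes start 50305 bases apart in rn4. The oocyte markers given above moved in the same direction as the second probe, by a median of 1.89, and their part in it was not tested. The first 30 of the 60 bases of each probe are shown to identify the probes. Which part of the transcript each of them reads was not determined.
Rspo2 first probe: ggggtctgcttttcactaacaaggatggtt
Rspo2 second probe: aacagcacagcgtcttccttgctacagaca
Of the receptors for R-spondins, Lgr4 differed by -0.25 (limma adjusted p = 0.143) and the brighter Lgr5 probe by 0.48 (0.252), where PMSG-labelled arrays 1 and 3 stood at -2.57 and -2.52 and arrays 2 and 4 at -3.44 and -3.85. Control-labelled arrays lay between -3.74 and -3.35 for that Lgr5 probe, so arrays 1 and 3 were above them, array 2 among them and array 4 below. Lgr6 was well above background on 3 control-labelled arrays and 0 PMSG-labelled arrays and was not tested.

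Of 17 tested WNT ligands, 2 were higher, 2 were lower and 13 did not pass, with a median log2 difference of 0.19. The share called was 23.5%, below the 34.5% of all gene names. Wnt7a, known from epithelium of the oviduct and uterus, was at -2.90, -3.70, -2.48 and -3.76 on control-labelled arrays and at -1.67, -2.40, -2.29 and -1.51 on PMSG-labelled arrays. The groups did not overlap, though PMSG-labelled arrays 2 and 3 lay close to control-labelled array 3. The difference was 1.24 (SE 0.34, limma adjusted p = 0.0227, rn4 probe position chr4:125541714-125541773). It was lost without control array 2 (limma adjusted p = 0.0618), control array 4 (0.0607) or PMSG array 1 (0.0600), or without PMSG arrays 3 and 4 together (0.0800). Oviduct epithelium markers moved with it, by a median of 1.62, and their part in it was not tested.

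Wnt10a was at -5.44, -4.91, -5.20 and -4.64 on control-labelled arrays and at -3.86, -3.63, -4.37 and -4.30 on PMSG-labelled arrays. The groups were separate, with a difference of 1.00 (SE 0.23, limma adjusted p = 0.0105, rn4 probe position chr9:74137306-74137365). Quantile normalization ended the call (limma adjusted p = 0.0606), and normexp gave 0.51 (limma adjusted p = 0.00544). Wnt10b, its closest relative in the family, went the other way. It was at -3.72, -3.74, -3.58 and -3.79 on control-labelled arrays and at -4.12, -4.87, -4.28 and -5.13 on PMSG-labelled arrays, a difference of -0.89 (SE 0.22, limma adjusted p = 0.0161, rn4 probe position chr7:137541228-137541287). The control-labelled arrays agreed closely and PMSG-labelled arrays 2 and 4 were the lowest. With normexp the Wnt10b difference was -0.36 and did not pass (limma adjusted p = 0.0653).

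Wnt4, the ligand required for female gonad development, was at 0.77, 1.05, 1.33 and 1.22 on control-labelled arrays and at 0.28, 0.75, 0.45 and -0.03 on PMSG-labelled arrays. PMSG-labelled array 2 lay just under control-labelled array 1, and the groups did not overlap. The difference was -0.73 (SE 0.19, limma adjusted p = 0.0193, rn4 probe position chr5:156082786-156082845), and it was lost without control array 3 (limma adjusted p = 0.0522) or control array 4 (0.0549), or without PMSG arrays 3 and 4 together (0.0741). Of the ligands that did not pass, Wnt3 had the largest difference, 0.82 (95% interval 0.01 to 1.63, limma adjusted p = 0.108). Wnt16 varied more than any other ligand within the PMSG label, from -4.62 on array 2 to -1.34 on array 4, with a 95% interval from -1.88 to 1.05. The intervals of Wnt2b (-0.24 to 0.33), Wnt8a (-0.13 to 0.33) and Wnt5b (-0.06 to 0.44) were the narrowest of the 13. Wnt5a, a ligand of the non-canonical branch, differed by -0.26 (limma adjusted p = 0.376). Wnt8b and Wnt9a were well above background on 0 and 3 of 8 arrays and were not tested. Porcn, the acyltransferase that attaches the lipid to WNT proteins, differed by 0.21 (limma adjusted p = 0.265).

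Among 12 tested receptors and co-receptors 3 were higher and 0 lower, with a median log2 difference of -0.07. The largest was that of the gene the array names Fzd10-ps1, which RefSeq lists as the protein-coding receptor gene Fzd10. It was at 0.55, 0.50, 0.70 and 0.10 on control-labelled arrays and at 2.43, 2.55, 2.43 and 2.78 on PMSG-labelled arrays. The spread within each label was small beside the gap, and the difference of 2.08 (SE 0.15, limma adjusted p = 9.03e-05, rn4 probe position chr12:29163666-29163725) is 4.24-fold. Over all 19 alternatives it stayed between 1.91 and 2.16.

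Fzd9 was at -5.43, -5.10, -5.37 and -5.16 against -5.11, -4.65, -4.45 and -4.68, with PMSG-labelled array 1 inside the control range. Its difference of 0.54 (SE 0.16, limma adjusted p = 0.0292) did not pass in 9 of 19 alternatives, with 0.26 under normexp (limma adjusted p = 0.0983) and 0.27 under quantile normalization (0.397). It was also lost without control array 1, 3 or 4 or PMSG array 2 or 3 (limma adjusted p from 0.0531 to 0.0782). Fzd1 was higher by 0.45 (SE 0.12, limma adjusted p = 0.0195) without overlap. It did not pass in 4 of 19 alternatives, among them median centring (0.28, limma adjusted p = 0.243) and leaving out control array 2 (0.0570) or control array 4 (0.0568). The other frizzled genes tested, Fzd2, Fzd3, Fzd5, Fzd6 and Fzd8, had differences from -0.32 to 0.29 and did not pass. The co-receptors Lrp5 and Lrp6 had differences of -0.41 (limma adjusted p = 0.0525) and -0.22 (0.182), and the tyrosine kinase receptors Ror1 and Ror2 of 0.27 and 0.04. Fzd4 was well above background on 2 control-labelled arrays and 0 PMSG-labelled arrays and was not tested.

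None of the 5 cytoplasmic transducers passed in the limma fit, beside 34.5% of all gene names called, and 1 had an unadjusted p under 0.05. That was Dvl1, a scaffold that relays the signal from Frizzled, at -0.26 (limma adjusted p = 0.0596). Beta-catenin itself, Ctnnb1, differed by -0.18 (95% interval -0.52 to 0.17). Axin1, the scaffold of the destruction complex, differed by 0.24 (95% interval -0.01 to 0.48). Axin2, whose promoter holds the TCF core shown above, was at -4.97, -4.07, -4.31 and -4.57 on control-labelled arrays and at -3.96, -4.28, -4.38 and -3.92 on PMSG-labelled arrays. These ranges overlapped and the difference of 0.35 did not pass (95% interval -0.13 to 0.82, limma adjusted p = 0.221).

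By contrast, all 4 nuclear factors were higher in arrays labelled PMSG, with a median log2 difference of 0.75. Over all gene names 18.0% were called higher. Under median centring Lef1, Tcf7 and Tcf7l1 did not pass and Tcf7l2 kept its call, so the count for this group depends on the scaling. Tcf7l2 was at 0.27, 0.23, 0.31 and 0.12 on control-labelled arrays and at 1.48, 1.29, 1.02 and 1.18 on PMSG-labelled arrays. The control-labelled arrays lay within a narrow band and every PMSG-labelled array was far above it, by 1.01 on average (SE 0.12, limma adjusted p = 5.31e-04, rn4 probe position chr1:262226651-262226710). The other Tcf7l2 probe, whose 60 bases span 4354 bases of rn4 and so cross a splice junction, differed by 0.52 (SE 0.15, limma adjusted p = 0.0307). That call was lost in 6 of 18 alternatives, among them those without control array 1 (limma adjusted p = 0.0740), control array 4 (0.0666) or PMSG array 1 (0.0781).

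Tcf7l1, which mostly represses targets, was at -0.98, -1.04, -1.23 and -0.95 on control-labelled arrays and at 0.17, -0.12, -0.77 and -0.31 on PMSG-labelled arrays. PMSG-labelled array 3 was nearest the control range and array 1 farthest from it. The difference was 0.79 (SE 0.19, limma adjusted p = 0.0147, rn4 probe position chr4:106127538-106127597), lost under median centring (limma adjusted p = 0.0601). The other Tcf7l1 probe, 1318 bases away, differed by 0.44 and did not pass (limma adjusted p = 0.256).

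Lef1 was at -3.68, -3.33, -3.42 and -3.83 on control-labelled arrays and at -2.68, -3.34, -2.82 and -2.56 on PMSG-labelled arrays, where array 2 fell inside the control range. Its difference of 0.71 (SE 0.19, limma adjusted p = 0.0227, rn4 probe position chr2:228668698-228668757) did not pass in 8 of 19 alternatives, among them those without control array 1 or 4 or PMSG array 1 or 3 (limma adjusted p from 0.0502 to 0.0639). A pair of further Lef1 probes, which overlap each other in position, differed by 0.54 and 0.84 and did not pass (limma adjusted p = 0.0771 and 0.108). Tcf7 was higher by 0.37 (SE 0.12, limma adjusted p = 0.0432), a call that 13 of 19 alternatives did not return, among them median centring with 0.20 and the omission of any array but control array 2 (limma adjusted p from 0.0570 to 0.110).

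**Figure D4:**
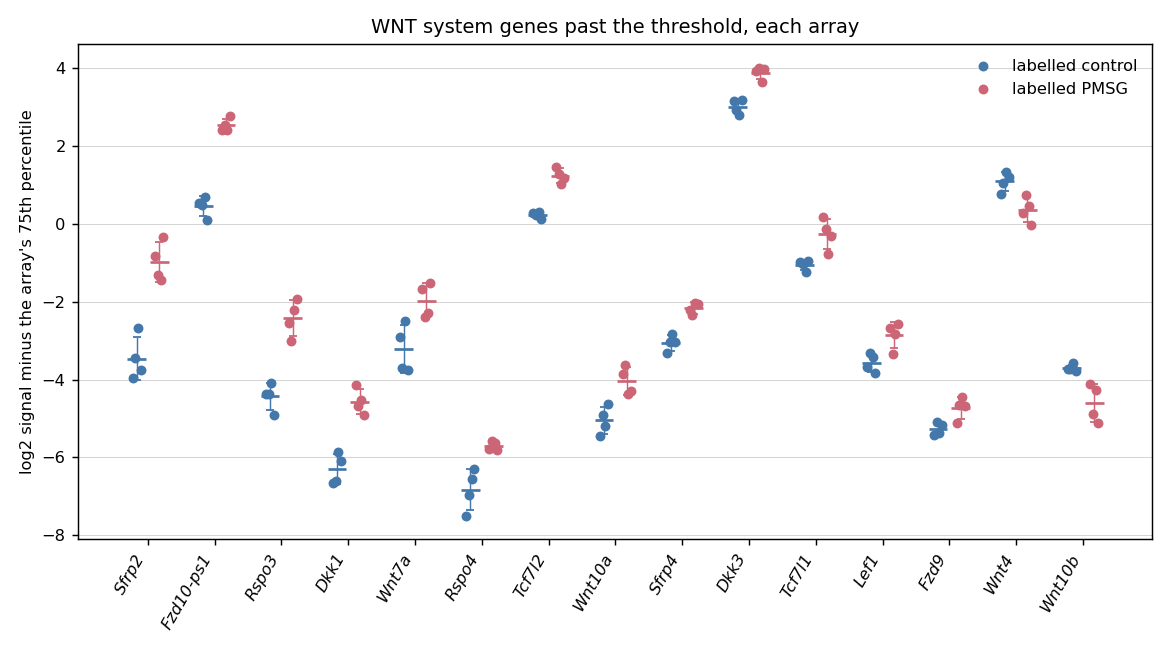
Level in each array (log2 signal minus the array's 75th percentile) for the 15 genes past the threshold with a log2 difference of at least 0.5 in either direction, ordered by difference; points are arrays, horizontal lines are means and bars are SD over 4 arrays. The groups are separate for each of these genes but Lef1 and Fzd9, and for Wnt4 and Wnt10b the control-labelled arrays are the higher ones.

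Of the genes with more than 1 tested probe, 10 in number, the probes differed in call for 3 (Lef1, Rspo2 and Tcf7l1) and in sign for 1. That was Lrp6, at -0.22 and 0.33, with neither probe past the threshold. The widest gap between probes of a gene was that of Rspo2, at 0.32 and 1.74.

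**Figure D5:**
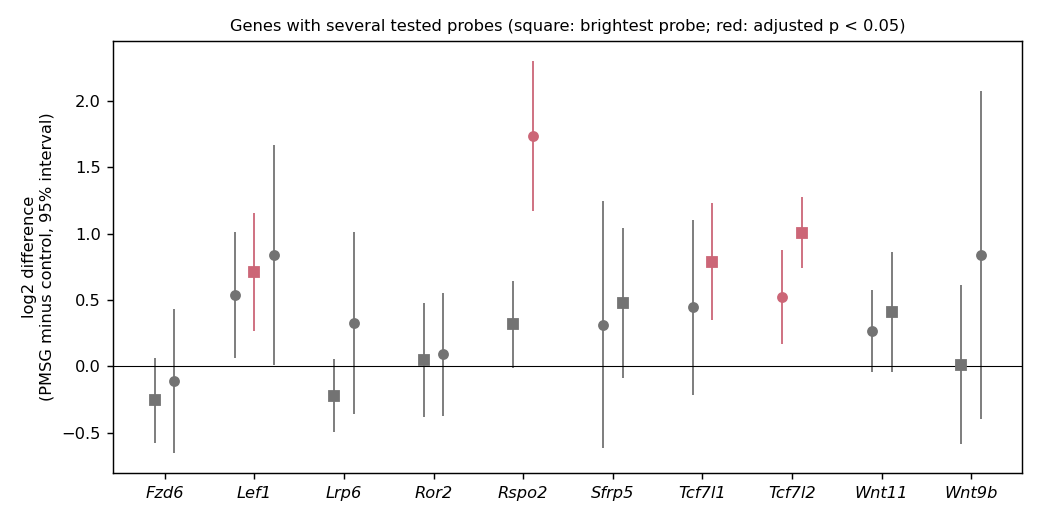
Log2 difference (PMSG-labelled minus control-labelled, with its 95% interval) of each tested probe of the 10 genes that have several; squares are the brightest probe and red marks an adjusted p under 0.05. The 2 Rspo2 probes stand at 0.32 and 1.74, and the 2 Lrp6 probes lie on opposite sides of 0.

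Spread within a label was wider in arrays labelled PMSG. The median SD over the 52 genes was 0.18 for control and 0.30 for PMSG, beside 0.16 and 0.27 over all gene names. Among the 15 genes drawn by array, control-labelled array 3 was the highest of its label for 9 and control-labelled array 1 the lowest for 7. Within the PMSG label no array took more than 5 of the highest or 6 of the lowest places.

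Other genes of the pathway were read from a list of 57, of which 54 were tested. Of these 13 were higher and 9 lower in arrays labelled PMSG (24.1% and 16.7%), beside the 18.0% and 16.5% of all gene names given above, with a median log2 difference of 0.20. The largest increases were those of Sostdc1, a secreted binder of LRP co-receptors and BMP ligands, by 2.10 (SE 0.28, limma adjusted p = 0.000923), of Nkd2, which binds Dvl and damps the signal, by 1.76 (limma adjusted p = 9.75e-05), and of Notum, the enzyme that removes the lipid from WNT proteins, by 1.65 (limma adjusted p = 8.17e-05). With normexp the Notum difference was 0.80. Nkd2 has 2 probes, and the mean over the probes of the gene gave 0.78, so the increase of 1.76 was not shared by its other probe. The largest decreases were those of Fst, which encodes follistatin, by 1.05, of Prickle1, a planar polarity protein, by 0.91, and of Gpc4, a glypican of the cell surface, by 0.89. Prickle1 did not pass in 4 of 19 alternatives, among them those that left out array 1 or 4 of the control label or array 3 of the PMSG label.

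By group, 3 of 8 further antagonists were higher and 0 lower: Sostdc1, Kremen1 by 1.25 and Apcdd1 by 0.73. Kremen1 encodes a receptor for DKK proteins and Apcdd1 a membrane inhibitor of WNT signalling. Of 7 frequently used target genes 1 was higher, Sp5 by 0.97, and 4 were lower, which were Fst, Ccnd1 by 0.70, Cd44 by 0.58 and Myc by 0.47. That is 14.3% higher and 57.1% lower, beside 18.0% and 16.5% of all gene names. The list of 7 does not hold every target of the pathway. Axin2, the feedback target named above, and Nkd1 were counted in other groups. They differed by 0.35 and 0.61 and did not pass. Mean levels on control-labelled and PMSG-labelled arrays were -5.70 and -4.72 for Sp5, and -4.76 and -3.51 for Kremen1. How the Sp5 and Kremen1 differences change under normexp is not given here. Of 11 destruction complex genes and kinases, 1 was higher and 1 lower, Csnk1d by 0.31 and Gsk3b by 0.63. Of 13 co-receptors and planar polarity genes 4 were higher and 3 lower, among them Gpc3 by 1.32 and Ptk7 by 0.79, higher, and Ryk by 0.81, lower. Of 11 nuclear partners 3 were higher (Tle2, Cby1 and Tle1) and 1 was lower (Ctnnbip1). The share called was 37.5% of the further antagonists and 36.4% of the nuclear partners, near the 34.5% of all gene names. It was 18.2% of the destruction complex genes and kinases and 53.8% of the co-receptors and planar polarity genes. Wls, the carrier that takes WNT proteins to the cell surface, differed by -0.02.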

How the data were processed

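Ovary RNA of 8 samples was hybridised, labelled with Cy3, to 1-colour Agilent arrays on 1 slide scanned at once. Per the file headers, the authors extracted spot intensity using Agilent Feature Extraction 11.5.1.1; detrending (spatial and multiplicative) and surrogate values for dim spots were on and local background correction was off. The deposited table of log2 values matched log2 processed intensity less the 75th percentile of the array, probes were not centred, and each column matched its own array best; how it was made is not given in the sources used here. Median values of its columns ran from -3.21 to -2.82.

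Outlier and control spots were left out, log2 processed intensity was averaged over spots of a probe, and each array's 75th percentile over 30350 probes was subtracted; 17 probes without a usable spot on some array were dropped, and no member was among them. No spot was saturated. The 75th percentile of signal ran from 1002 to 1103 on control-labelled and from 768.9 to 1082 on PMSG-labelled arrays, and 80.8% to 84.6% of probes were well above background. A probe counted as above background with at least 0.5 of its spots so marked; those passing on 4 or more of 8 arrays, 25303 in all, were tested. Probes that were above background only under 1 label pass such a filter through that label, so counts of tested members describe those members alone.

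The comparison used lmFit and eBayes of limma 3.58.1 under R 4.3.3 (no covariates; Benjamini-Hochberg over all tested probes, threshold 0.05), and 34.2% of probes were called. The procedure was run on simulated data with independent noise for each probe, which cannot show effects shared by the probes of an array. A gene was read by its brightest tested probe. Genes are named with a value for every array where past the threshold with a log2 difference of at least 0.5 either way; among other pathway genes the 3 largest each way are named first, and further ones were chosen after their values were seen. Alternatives covered background correction, scaling, the deposited values, the filter on dim probes, blocks for replicate number and slide row, array weights, the mean over a gene's probes and leaving out each array, and, added after seeing the data, leaving out PMSG arrays 3 and 4. The members and lists were chosen with earlier results of these data known. Coordinates are on rn4, as in the file headers; exon and UTR annotation was not used here. All 71 member probes matched a RefSeq symbol or accession (GRCr8, used for names and promoters). The number of arrays limits the precision of every value.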

Additional observations from a re-analysis of the deposited data

Results flagged for a closer look

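Each label's 4 values were examined for the 52 tested genes and for 2 further probes past the threshold, 108 sets in all. In 6 of them 1 array lay far from its companions, judged by the distance to the closest of them divided by the whole range. About 1 in 20 sets does so by chance, here 5.4. None of the 6 belongs to a gene past the threshold, but a far-off array widens the spread and so makes a call less likely. For Rspo1, PMSG-labelled array 4 read -2.37 while its companions read -4.24 to -4.07 (ratio 0.909). The same array read -6.39 for Wnt3a, with companions at -5.57 to -5.43 (ratio 0.847). PMSG-labelled array 1 read 1.02 for Axin1, with companions at 1.29 to 1.34 (ratio 0.838). On the control side, Ctnnb1 read -0.31 on array 4 and -0.63 to -0.61 elsewhere (ratio 0.946). Dvl1 read 0.96 on array 3 and 0.80 to 0.83 elsewhere (ratio 0.859). Wnt3 read -6.03 on array 2 and -5.07 to -4.95 elsewhere (ratio 0.883).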

How the results depend on the processing

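Over 19 alternatives the count of called member genes, 17, lay between 11 and 25, and none of the 23 genes and 2 further probes refitted changed sign. When 1 array was left out the count of member genes ran from 11 to 25 and of member probes, 19 with all arrays, from 12 to 31, the lowest without control array 4 and the highest without PMSG array 4; over all probes 6552 and 11382 were called in those fits, beside 8658 with all arrays. Where shared calls were counted, no alternative returned all 17 genes; 16 came back with the deposited values, no filter, array weights, the slide row as a block or without PMSG array 4. Sfrp2, Dkk1, Dkk3, Sfrp4, Rspo3, the brighter Tcf7l2 probe, Fzd10-ps1 and the second Rspo2 probe kept their call under each alternative run on them. The replicate block gave 14 member genes and 16 member probes; the numbers do not pair the arrays, since correlations of deviations within a number were 0.0444, 0.0361, 0.183 and -0.0192, and best for the own number in replicate 3 alone. With quantile normalization 13 members were called, 11 higher, and with median centring 13, 10 higher; over all probes the higher share of calls was 51.4%, and 46.2% and 34.5% under these. Normexp, whose offset shrinks dim signals, lowered the differences of Dkk1, the second Rspo2 probe, Rspo3, Rspo4, Wnt10a, Wnt10b, Fzd9 and Notum by over 1.5 times. Leaving out PMSG arrays 3 and 4, chosen after seeing the data, gave 16 member genes. The cause of these changes was not tested.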
